A study of Mus musculus with 16 samples.

Results

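Feedback inhibitors, secreted antagonists and targets of Wnt signalling were followed with the naked cuticle gene Nkd2 through normal mammary gland and mammary tumours of mice. The 10 genes were Nkd1, Nkd2, Lef1, Tcf7, Axin2, Sfrp1, Dkk3, Wif1, Apcdd1 and Ctnnb1, and every probe set that the array's gene table gave to one of them alone was taken. This gave 20 of the 22690 probe sets, for 9 of the 10 genes. Tcf7, like Lef1 a DNA-binding factor of the pathway, had no such probe set and was not analysed here. Of the 20 probe sets, 18 for 8 genes had signals high enough to be tested.

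The 16 arrays held total RNA from mice on the FVB/N background. Of these, 3 were normal mammary gland (arrays 1, 4 and 6), for which the labels give no transgene and no stage such as virgin or lactating. A further 7 were tumours of mice with STAT5ca, a constitutively active STAT5 (STAT5ca_123, STAT5ca_124, STAT5ca_213, STAT5ca_159, STAT5ca_169, STAT5ca_171 and STAT5ca_177). STAT5 is a transcription factor switched on by prolactin and needed for milk production. The other 6 were tumours of mice with STAT5Δ750, a STAT5 truncated at its C-terminus (STAT5Δ750_254, STAT5Δ750_92, STAT5Δ750_165, STAT5Δ750_174, STAT5Δ750_178 and STAT5Δ750_160). The promoter that drives the transgenes, the ages of the mice, the histology of the tumours and whether mice were pooled are not given in the sources used here. Nothing in the labels says that arrays of a group came from separate animals, so the p-values measure only the spread between these samples.

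Wnt proteins bind Frizzled receptors and the coreceptors Lrp5 and Lrp6. The signal stops a destruction complex, built on Axin and Apc, from marking beta-catenin, the product of Ctnnb1, for degradation. Beta-catenin then joins the DNA-binding factors Lef1 and Tcf7 and raises target genes. Several targets, among them Axin2, Nkd1 and Apcdd1, hold the signal back, so their RNA is widely read as a gauge of it. In the mammary gland the pathway takes part in duct branching and in the upkeep of basal stem cells, and mouse mammary tumours arise when it is driven by a Wnt transgene.

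The factors at the end of the pathway bind DNA at a short core. The core was searched in the RefSeq promoter windows of GRCm38.p6, which run from 250 bases before a transcript's start to 50 after it, as the word CTTTGAT, the word CTTTGAA, the word CTTTGTT and the word CTTTGTA, on both strands. The table held 12 windows for 7 of the genes and no window for Sfrp1, Dkk3 and Apcdd1. A core was in 1 of the 12 windows, that of the 1 of 4 Lef1 starts that lies downstream of the others within the gene, and in 16.9% of all 32544 windows. The STAT5 palindrome TTCNNNGAA, which reads the same on both strands and shares no word with the core, was in 0 of the 12 and in 8.33% of all windows. A match is a string of letters, not a binding site. Shown here are the 250 bases before the start for Nkd2 and Lef1, 2 of the genes that changed in tumours, and for Axin2, the classical target. Capitals mark the core in the Lef1 window, TACAAAG on the printed strand, whose first base is at -147 from the start.
Nkd2, chr13:73847632-73847881, minus strand: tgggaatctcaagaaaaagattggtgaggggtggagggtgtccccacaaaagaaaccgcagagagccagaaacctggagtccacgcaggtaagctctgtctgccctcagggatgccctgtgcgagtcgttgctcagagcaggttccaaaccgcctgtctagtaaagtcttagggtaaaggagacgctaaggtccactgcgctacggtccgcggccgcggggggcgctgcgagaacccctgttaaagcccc
Lef1, chr3:131156044-131156293, plus strand: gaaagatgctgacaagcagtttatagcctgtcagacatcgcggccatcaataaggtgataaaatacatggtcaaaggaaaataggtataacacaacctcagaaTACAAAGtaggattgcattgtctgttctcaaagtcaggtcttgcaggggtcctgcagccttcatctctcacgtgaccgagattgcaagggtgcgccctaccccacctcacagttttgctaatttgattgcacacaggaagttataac
Axin2, chr11:108920099-108920348, plus strand: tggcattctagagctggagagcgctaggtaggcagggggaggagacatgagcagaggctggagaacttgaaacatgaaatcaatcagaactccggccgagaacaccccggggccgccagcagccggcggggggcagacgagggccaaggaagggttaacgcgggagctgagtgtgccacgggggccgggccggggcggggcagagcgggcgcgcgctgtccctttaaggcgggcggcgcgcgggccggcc
The Nkd2 stretch was 58.4% G and C, the Axin2 stretch 69.2% and the Lef1 stretch 44.8%.

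Tissue make-up and RNA differed between gland and tumours beside every result that follows. Values are MAS5 signals, a linear brightness per probe set as deposited, and changes are differences of log2(signal + 7.9) after each array was scaled to one median. Krt8, a luminal keratin, had signals of 708.1 to 1879.6 in gland and of 3710.8 to 5375.9 in the tumours, except for 25.3 on STAT5ca_177, and it did not pass in either kind of tumour (limma adjusted p 0.497 and 0.261). Of 8 luminal genes tested, 1 passed as higher in STAT5ca tumours and 2 in STAT5Δ750. Of 9 basal genes tested 4 and 2 passed as lower (Myh11 and Mylk in both, Cnn1 and Acta2 in STAT5ca tumours) and none as higher. The keratins Krt14 (1.38 and 1.87 log2 units) and Krt17 (1.55 and 2.21) lay the other way without passing (limma adjusted p 0.156 to 0.498). Krt5 (-0.86 and 0.08), Trp63 (-1.63 and -0.30) and Tagln (-0.56 and -0.37) did not pass either. Krt14 had signals of 62.9 to 102 in gland, 1.3 to 1390.7 in STAT5ca and 43.6 to 2222.4 in STAT5Δ750 tumours. Genes of T cells (9 of 11 tested in STAT5ca, 10 of 11 in STAT5Δ750), B cells (5 of 5 in both), adipocytes (5 of 6 in both), skeletal muscle (7 and 6 of 7) and endothelium (5 of 6 in both) fell against gland. Fewer cells of a type and less RNA per cell cannot be told apart in such tissue. The 3'/5' signal ratio of the beta-actin control, a measure of RNA integrity, was 1.07 to 1.25 in gland, 1.76 to 5.38 in STAT5ca and 1.27 to 3.52 in STAT5Δ750 tumours. The part of tissue make-up in the results was not tested. The control ratios were set in the fit as covariates, with the calls that changed given below.

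Against gland, few of the Wnt probe sets changed, 16.7% of those tested in STAT5ca and 11.1% in STAT5Δ750 tumours, shares no larger than those of all probe sets. Passing were Nkd2 1419465_at, higher in STAT5Δ750 tumours, and Lef1 1421299_a_at, lower in STAT5ca tumours. Of the beta-catenin gene Ctnnb1, 1420811_a_at passed as higher in STAT5ca tumours and 1450008_a_at in both kinds. Those Ctnnb1 calls were lost at the deposited scaling and with any 1 gland left out. Nkd2 was tested through the tumours and Lef1 through the glands, where each is high, so both changes are descriptions. In limma with Benjamini-Hochberg adjustment, 3 of 18 probe sets passed in STAT5ca tumours, 2 higher and 1 lower, beside 20.8% of all 15764 probe sets tested (13% higher, 7.82% lower). In STAT5Δ750 tumours 2 of 18 passed, both higher, beside 18.3% of all (9.77% higher, 8.5% lower). The median change of the 18 was 0.61 log2 units in STAT5ca and 0.58 in STAT5Δ750 tumours, beside medians of 0.28 and 0.17 over all probe sets. At an unadjusted p under 0.05 there were 9 of 18 in both, beside 34.5% of all in STAT5ca and 32.8% in STAT5Δ750 tumours. Both comparisons share the 3 glands.

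**Figure D1:**
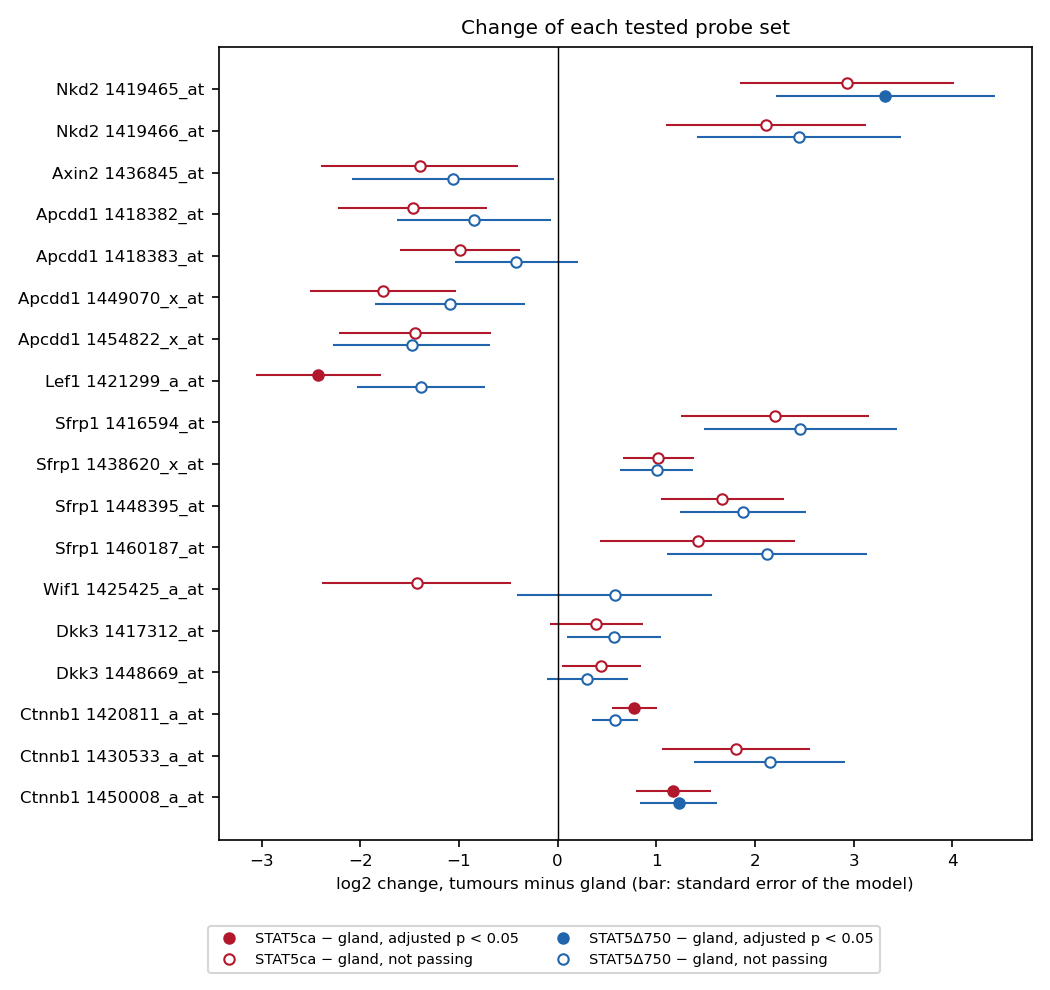
Log2 change of each tested probe set against gland (x axis, log2 units; bar: standard error of the model), with STAT5ca tumours in red and STAT5Δ750 tumours in blue. Filled points passed at an adjusted p under 0.05. The Nkd2, Sfrp1 and Ctnnb1 probe sets lie to the right of 0 and those of Axin2, Apcdd1 and Lef1 to the left, but only 3 red and 2 blue points are filled.

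Those counts changed with single glands and with the scaling of the arrays. Without gland 1 the counts were 0 and 0, beside 9.18% and 7.63% of all probe sets then tested. Without gland 4 they were 0 and 0, beside 8.93% and 6.09%, and without gland 6 they were 1 and 0, beside 10.9% in both. At the deposited scaling they were 1 and 0, beside 16.3% and 18.6%. With the beta-actin ratio as a covariate they were 0 and 2, beside 10.7% and 19%. Without STAT5ca_177, the tumour with low Krt8, they were 7 and 4, beside 28.5% and 24.2%, and without STAT5ca_123 they were 6 and 4, beside 18.8% and 19.6%. Scaling also moved the whole array: at the deposited scaling the median change of all probe sets was 0.01 in STAT5ca and 0.05 in STAT5Δ750 tumours. The calls over all probe sets were then split 880 higher to 1683 lower in STAT5ca tumours, against 2043 to 1232 at the common median, and 1199 to 1740 in STAT5Δ750 tumours, against 1540 to 1340.

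Naked cuticle proteins bind Dishevelled, the relay downstream of Frizzled, and dampen the signal. The Nkd2 probe set 1419465_at had signals of 5.9, 22.7 and 9.5 in glands 1, 4 and 6. In STAT5ca tumours its signal ran from 11.8 through a median of 76.6 to 882.9. In STAT5Δ750 tumours it ran from 70.7 through 104.1 to 939.6. All 6 STAT5Δ750 tumours lay above all 3 glands, and of the 7 STAT5ca tumours only STAT5ca_177, at 11.8, did not.

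Within both kinds of tumour Nkd2 was spread widely. It was highest on STAT5Δ750_160 (939.6), STAT5ca_123 (882.9), STAT5ca_171 (687.4), STAT5Δ750_165 (551.4) and STAT5ca_159 (266). The other 8 tumours lay at 126 or below. The second probe set, 1419466_at, was also highest on those 5 arrays, at 162 to 333.8, and had signals of 1.3 to 14.3 in gland.

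The fitted change of Nkd2 1419465_at in STAT5Δ750 tumours was 3.32 ± 1.11 log2 units (SE), 10-fold, with an adjusted p of 0.048 in limma. In STAT5ca tumours it was 2.93 ± 1.08, with an adjusted p of 0.0665, which misses the threshold. For 1419466_at the values were 2.45 ± 1.04 (adjusted p 0.112) and 2.11 ± 1.01 (adjusted p 0.151). Since gland signals are near the added 7.9, these folds understate a change and depend on that offset. The STAT5Δ750 call is narrow: it was lost without any 1 gland (adjusted p 0.110 to 0.168), without any 1 of the tumours STAT5Δ750_165, STAT5Δ750_174, STAT5Δ750_160, STAT5ca_124, STAT5ca_213 or STAT5ca_159 (0.0516 to 0.0916), and at the deposited scaling (0.0552). That call was also lost with the Gapdh ratio as a covariate (3.29, limma adjusted p 0.0687). Without STAT5ca_177 the STAT5ca change was 3.36 with an adjusted p of 0.0215, and without STAT5ca_169 it was 3.22 with 0.0482, so that both pass.

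Nkd1, the close relative of Nkd2 and itself a target of the pathway, was dim throughout. Its probe set 1417278_a_at had signals of 8.5, 15.1 and 15.1 in gland, and 34.3 was the highest of the 16. It did not reach the signal of 35.4 needed on 3 arrays and was not tested. Its highest signals were on STAT5Δ750_160 (34.3), STAT5ca_123 (33.9) and STAT5ca_159 (30), which are also high in Nkd2.

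**Figure D2:**
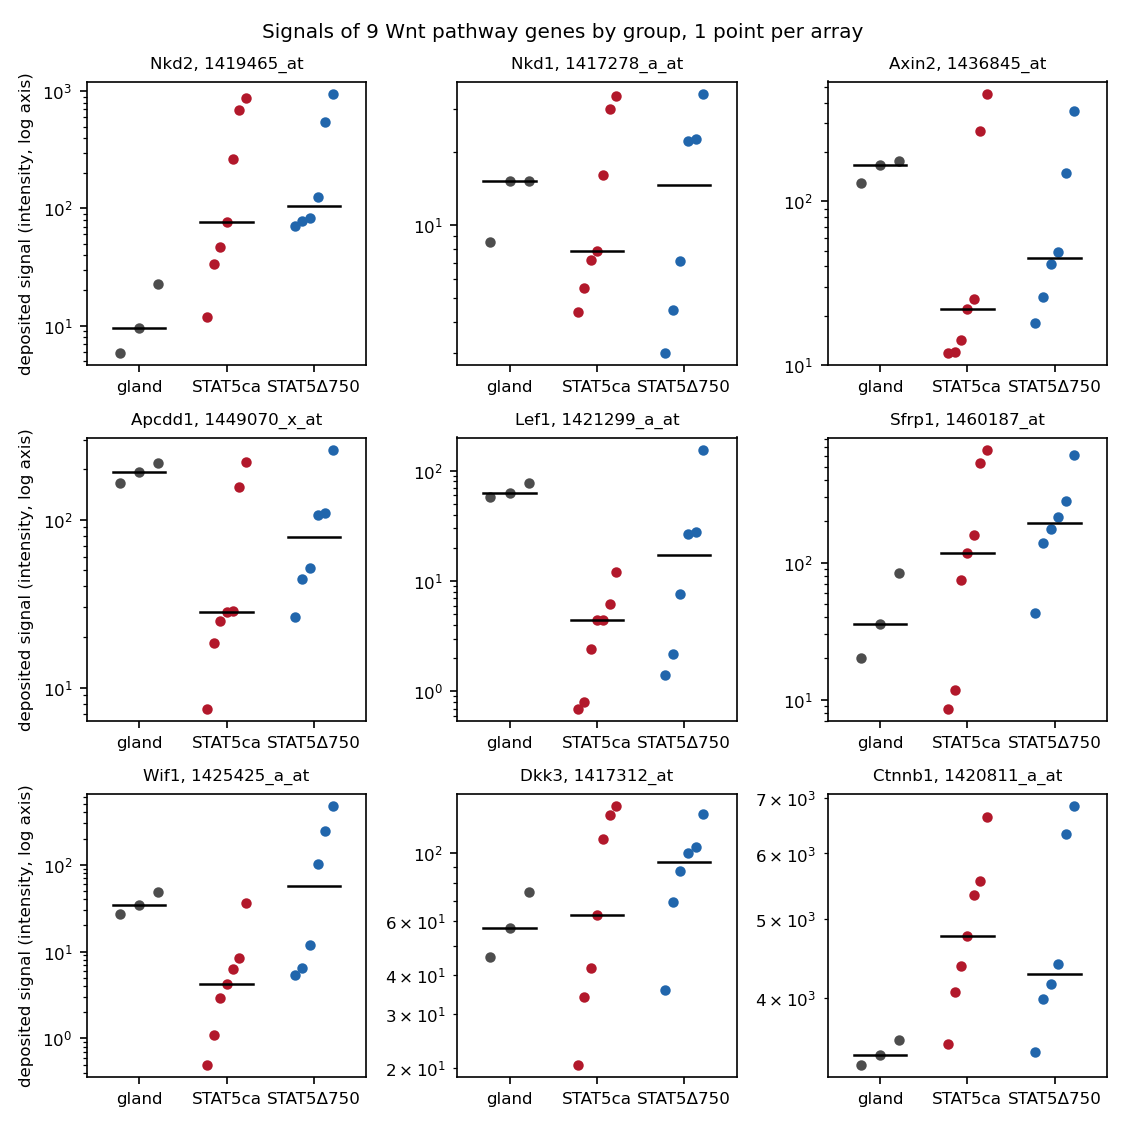
Deposited MAS5 signal (log axis) of the main probe set of each of the 9 genes on every array, with points for single arrays, set out by value within a group, and a bar at each group's median. Nkd2 spans 11.8 to 882.9 in STAT5ca and 70.7 to 939.6 in STAT5Δ750 tumours, while Ctnnb1 keeps within 3443 to 6844.3 in all tumours.

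Axin2 is a scaffold of the destruction complex and the most general Wnt target. Its probe set 1436845_at had signals of 165.9, 177.5 and 129.1 in gland. In STAT5ca tumours its signal ran from 11.9 through 21.9 to 450.1, and in STAT5Δ750 tumours from 18 through 45.3 to 358.1. The tumours fell apart: STAT5ca_123 (450.1), STAT5ca_159 (269.3) and STAT5Δ750_178 (358.1) lay above all glands, STAT5Δ750_174 (148.8) among them, and the other 9 at 49.2 or below. The group changes, -1.40 ± 0.999 and -1.06 ± 1.02 log2 units, did not pass (limma adjusted p 0.341 and 0.494). A second probe set, 1421341_at, was dim and not tested, and its highest signals, 66.6, 31 and 21, were on STAT5Δ750_178, STAT5ca_159 and STAT5ca_123.

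Apcdd1 encodes a membrane protein that binds Wnt and its coreceptor and blocks the signal. Its brightest probe set, 1449070_x_at, had signals of 191.4, 166.3 and 217 in gland. STAT5ca tumours ran from 7.5 through 28.2 to 219.2, and STAT5Δ750 tumours from 26.3 to 258.4. The high arrays were STAT5Δ750_174 (258.4), STAT5ca_159 (219.2) and STAT5ca_123 (156.7), and each of the 4 probe sets of the gene was highest on these 3 of the tumours. Over the 4 probe sets the changes were -1.77 to -0.99 log2 units in STAT5ca and -1.48 to -0.42 in STAT5Δ750 tumours, with adjusted p values of 0.102 to 0.266 and 0.206 to 0.674, and none passed.

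Lef1, the DNA-binding partner of beta-catenin, was low in nearly all tumours. Its probe set 1421299_a_at had signals of 76.9, 57.5 and 62.5 in gland. STAT5ca tumours had signals of 0.7 through 4.4 to 12.1, all below all glands. STAT5Δ750 tumours ran from 1.4 to 152.6, with 5 of 6 below the glands and STAT5Δ750_165 above them. The change in STAT5ca tumours was -2.42 ± 0.64 log2 units, with an adjusted p of 0.0138 in limma. In STAT5Δ750 tumours it was -1.39 ± 0.65 and did not pass (adjusted p 0.152). Without STAT5Δ750_165 that change was -1.91 with an adjusted p of 0.0106. The STAT5ca call was lost without gland 1 (adjusted p 0.0722) or gland 4 (0.0578) and with the beta-actin ratio as a covariate (-1.80, 0.195). Lef1 was above the signal needed for testing on the 3 glands and on STAT5Δ750_165 alone, and on 0 STAT5ca tumours. Against STAT5ca tumours it was thus tested through the glands, where it is high, and its fall is a description only. Tumour signals under the added 7.9 carry little information, so the fold is not a measure of how low Lef1 was.

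Lef1 is also a gene of T cells. The mean log2 value of the 11 T cell genes was 7.58 to 8.39 in gland, 3.92 to 6.53 in STAT5ca and 3.90 to 6.58 in STAT5Δ750 tumours, with no overlap between gland and tumours. Cd3e, which defines T cells, had signals of 146.1 to 380.8 in gland and of 2.7 to 87.8 in tumours, at 0 on none. On STAT5Δ750_165, where Lef1 was 152.6, Cd3e was 3.6 and the T cell mean 4.41. Across the 13 tumours Lef1 and the T cell mean had a Pearson r of 0.18 (permutation p 0.564, adjusted 0.746 over 27 pairs), a Spearman rho of 0.43 (permutation p 0.139), and an r of 0.62 without the 2 arrays farthest in Lef1. The part of T cells in the fall of Lef1 was not tested further.

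**Figure D3:**
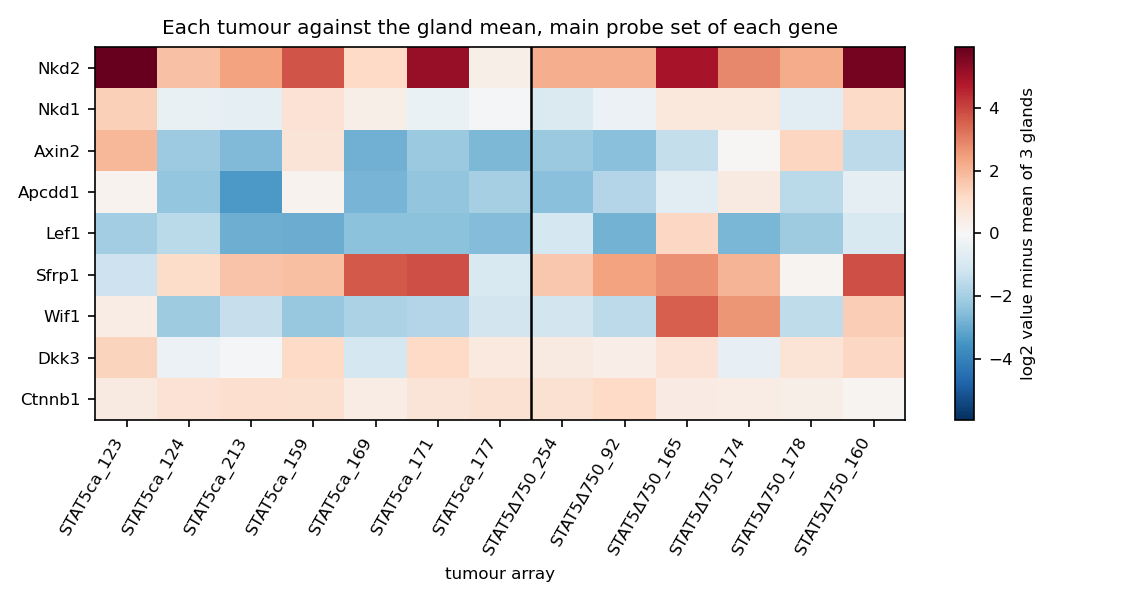
Log2 value of the main probe set of each of 9 genes on each of the 13 tumour arrays minus its mean over the 3 glands (colour scale in log2 units, red above and blue below gland). Nkd2 is above the gland mean on all 13 tumours, Lef1 is below it on all but STAT5Δ750_165, and Axin2 is clearly above it only on STAT5ca_123, STAT5ca_159 and STAT5Δ750_178.

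Of the secreted antagonists, Sfrp1, a decoy that binds Wnt and is often silenced in human breast cancer, had higher signals in most tumours than in gland, without passing the test. The brightest of its 4 probe sets, 1460187_at, had signals of 35.6, 20.1 and 84.7 in gland. STAT5ca tumours ran from 8.6 through 117 to 661, and STAT5Δ750 tumours from 42.6 through 196 to 610.7. STAT5ca_123 (8.6) and STAT5ca_177 (11.8) lay below the glands, and STAT5ca_171, STAT5Δ750_160 and STAT5ca_169 were highest, at 661, 610.7 and 531.3.

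The 4 Sfrp1 probe sets had changes of 1.02 to 2.21 log2 units in STAT5ca and 1.004 to 2.46 in STAT5Δ750 tumours, and none passed. The nearest was 1448395_at in STAT5Δ750 tumours, 1.88 ± 0.64, with an adjusted p of 0.0521 in limma. The same probe set was 1.67 ± 0.63 in STAT5ca tumours (adjusted p 0.0701), and without STAT5ca_177 it was 1.96 with an adjusted p of 0.0164. STAT5ca_177 and STAT5ca_123 were the lowest of the STAT5ca tumours on all 4 probe sets. Against gland STAT5ca_123 was not low on each: it had 28.4 on 1438620_x_at (gland 19.2 to 24.2) and 5.3 on 1416594_at (gland 0.9 to 4.3). Krt8 had a signal of 25.3 on STAT5ca_177 and of 4771.3 on STAT5ca_123, and the part of luminal cells was not tested.

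Wif1 is a secreted protein that binds Wnt directly. Its probe set 1425425_a_at had signals of 34.2, 27.1 and 48.9 in gland. STAT5ca tumours ran from 0.5 through 4.2 to 36.4, with only STAT5ca_123 above 8.5. In STAT5Δ750 tumours STAT5Δ750_165 (468.6), STAT5Δ750_174 (241.6) and STAT5Δ750_160 (100.8) lay above all glands and the other 3, at 5.3 to 12, below them. The changes from gland, -1.43 ± 0.96 and 0.58 ± 0.98, did not pass (limma adjusted p 0.309 and 0.716). The mean log2 value of the basal genes was also highest among all tumours on those 3 arrays, at 8.24 on STAT5Δ750_160, 7.72 on STAT5Δ750_174 and 7.17 on STAT5Δ750_165, beside 6.99 at most on the other 10 tumours. Across the 13 tumours Wif1 and the basal mean had r 0.66 (permutation p 0.0131, adjusted 0.354) and rho 0.56 (permutation p 0.0499). The r was 0.66 without the 2 tumours farthest in Wif1, 0.22 within STAT5ca (exact permutation p 0.55) and 0.74 within STAT5Δ750 tumours (exact permutation p 0.115), and the part of basal cells was not tested further.

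Dkk3, of the Dickkopf family of secreted proteins, differed least from gland: its probe set 1417312_at had signals of 56.9, 45.9 and 74.9 in gland, 20.5 to 141.8 in STAT5ca and 35.8 to 133.9 in STAT5Δ750 tumours, and the changes over both of its probe sets, 0.30 to 0.57 log2 units, did not pass (adjusted p 0.426 to 0.644).

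Ctnnb1, which encodes beta-catenin, a part of cell junctions as well as of the pathway, was the brightest of the genes. Its probe set 1420811_a_at had signals of 3412.5, 3324.8 and 3560 in gland. STAT5ca tumours ran from 3525.1 through 4764 to 6638, and STAT5Δ750 tumours from 3443 through 4285 to 6844.3. As deposited, STAT5ca_123 and STAT5Δ750_160 lay within the range of the glands, and after scaling to one median all 13 tumours lay above them. The change in STAT5ca tumours was 0.78 ± 0.23 log2 units (limma adjusted p 0.0239), 1.72-fold, and in STAT5Δ750 tumours 0.59 ± 0.23 (adjusted p 0.0916).

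A second probe set, 1450008_a_at, had signals of 1221.1, 833.7 and 1619.4 in gland, 778.5 to 4103.2 in STAT5ca and 1853.8 to 3833.9 in STAT5Δ750 tumours. All 6 STAT5Δ750 tumours lay above the glands. It rose by 1.17 ± 0.38 log2 units in STAT5ca (adjusted p 0.0375) and by 1.23 ± 0.39 in STAT5Δ750 tumours (adjusted p 0.0376). The third, 1430533_a_at, with changes of 1.81 and 2.15, did not pass (adjusted p 0.1 and 0.0632). The size of the change thus differed between probe sets of the same gene. As deposited, STAT5ca_123 had the lowest signal of the STAT5ca tumours on all 3. The call of 1450008_a_at was also lost in STAT5ca tumours without STAT5ca_213, STAT5ca_159 or STAT5ca_171 (adjusted p 0.0591 to 0.0671), and in STAT5Δ750 tumours without STAT5Δ750_254, STAT5Δ750_92 or STAT5Δ750_165 (0.0536 to 0.0702).

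The 3 Ctnnb1 calls depended on the scaling. At the deposited scaling the changes were 0.48 (adjusted p 0.188) and 0.88 (0.183) in STAT5ca and 1.10 (0.0941) in STAT5Δ750 tumours, after quantile normalization 0.52 (0.0902), 0.82 (0.207) and 1.03 (0.111), and none passed. With a gland left out, whichever it was, each call was also lost (adjusted p 0.0635 to 0.189). With the beta-actin ratio as a covariate both STAT5ca calls were lost, at 0.55 for 1420811_a_at (limma adjusted p 0.249) and 1.24 for 1450008_a_at (0.141). In STAT5Δ750 tumours 1450008_a_at no longer passed with that covariate (1.27, adjusted p 0.0612), while 1430533_a_at then did (2.62, 0.0466). The STAT5Δ750 call of 1450008_a_at was also lost with the Gapdh ratio as a covariate (1.08, 0.0658).

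Whether groups overlapped was counted on the scaled signals. In STAT5ca tumours 1 of 18 probe sets lay above gland on all 7 arrays, beside 13.8% of all, and 1 lay below, beside 6.8%. In STAT5Δ750 tumours 7 of 18 lay above gland on all 6 arrays, beside 19% of all, and 0 below, beside 12.5%. The 7 were both of Nkd2, all 3 of Ctnnb1 and 2 of Sfrp1. Both of Nkd2 and Sfrp1 1438620_x_at were above 35.4 on 0 glands, so they were tested through the tumours alone. Between the kinds of tumour 0 of 18 did not overlap in either direction, beside 0.127% and 0.00634% of all.

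The kinds of tumour were compared with each other directly. None of the 18 probe sets passed, and 0% of all 15764 did (limma). At an unadjusted p under 0.05 there were 1 of the 18 and 1134 of all, or 7.19%. The 1 was Wif1, lower in STAT5ca than in STAT5Δ750 tumours by 2.01 log2 units (95% interval -3.65 to -0.37, adjusted p 0.679), through the 3 high STAT5Δ750 tumours. Wif1 was above 35.4 on those 3, on 1 STAT5ca tumour and on 1 gland. It was thus tested through the STAT5Δ750 tumours, where it is high, and its difference is a description. For Nkd2 1419465_at the difference was -0.39 (interval -2.24 to 1.46) and for Lef1 -1.04 (interval -2.13 to 0.05). The fall of Lef1 called in STAT5ca tumours only was thus not shown to differ between them, nor was the rise of Nkd2.

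The genes were then compared with each other across the 13 tumours, gland left out, by the main probe set of each gene. Of 36 pairs none passed after adjustment, by Pearson's r or by Spearman's rho, and 7 had an unadjusted permutation p under 0.05. The highest Pearson's r was that of Nkd1 with Apcdd1, 0.79 (permutation p 0.00162, adjusted 0.0583) and rho 0.71 (permutation p 0.00834). Without the 2 tumours farthest in Nkd1 r was 0.75, within STAT5ca tumours 0.87 (exact permutation p 0.0179) and within STAT5Δ750 tumours 0.82 (exact permutation p 0.0472). Nkd1 was under the signal of 35.4 on every array, and at or under the added 7.9 on 4 of 7 STAT5ca and 3 of 6 STAT5Δ750 tumours, so its order among the tumours is that of a dim probe set.

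Axin2 with Apcdd1, both feedback targets, had r 0.75 (permutation p 0.00353, adjusted 0.0635) and rho 0.80 (permutation p 0.00141), the highest rho of the 36 pairs. Without the 2 farthest in Axin2 r was 0.89, within STAT5ca tumours 0.94 (exact permutation p 0.0151), and within STAT5Δ750 tumours 0.36 (exact permutation p 0.474), where STAT5Δ750_178 was high in Axin2 alone. Nkd2 stood closest to Dkk3, with r 0.68 (permutation p 0.0111, adjusted 0.133) and rho 0.74. With the target Axin2 its r was 0.44 (permutation p 0.132, adjusted 0.326) and its rho 0.67 (permutation p 0.015, adjusted 0.135). Without the 2 farthest in Nkd2 that r was 0.29, within STAT5ca tumours 0.72 (exact permutation p 0.0673) and within STAT5Δ750 tumours -0.17 (exact permutation p 0.782). Both genes were high on STAT5ca_123 (882.9 for Nkd2 and 450.1 for Axin2) and STAT5ca_159 (266 and 269.3), while high Nkd2 came with low Axin2 on STAT5ca_171 (687.4 and 25.3) and STAT5Δ750_160 (939.6 and 41.4). Of 27 pairs of a gene with the mean of the T cell, basal or fibroblast genes none passed, and 2 had an unadjusted permutation p under 0.05.

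**Figure D4:**
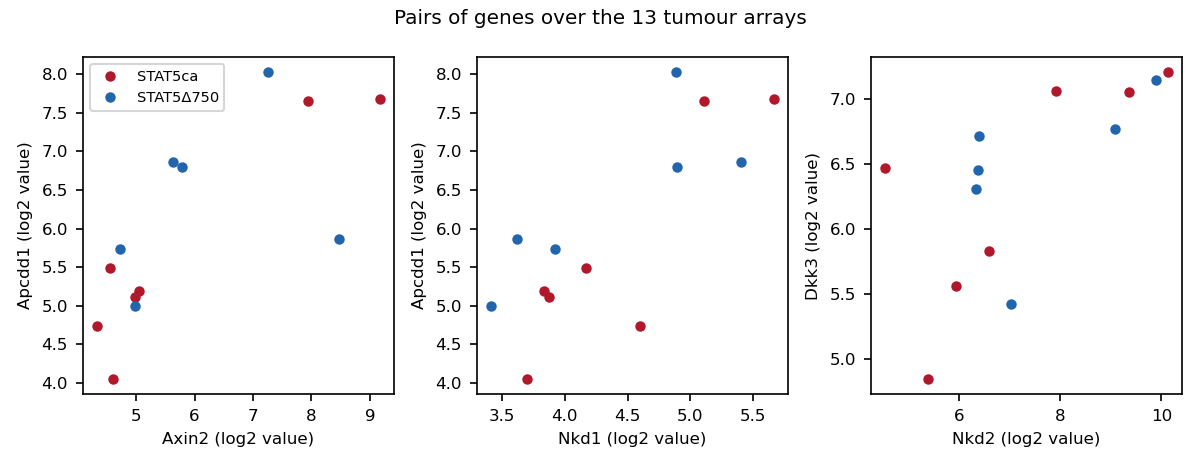
Log2 values of Apcdd1 against Axin2, Apcdd1 against Nkd1 and Dkk3 against Nkd2 (all axes log2 of the scaled signal plus 7.9), 1 point for each of the 13 tumour arrays, STAT5ca in red and STAT5Δ750 in blue. Axin2 and Apcdd1 are both high on STAT5ca_123 and STAT5ca_159, r over the panels is 0.75, 0.79 and 0.68, and no pair passed after adjustment over 36 pairs.

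The genes whose pattern over the 13 tumours was most like that of a gene that passed were listed by Pearson's r among 9260 genes. For Nkd2 they were Gm6958 (r 0.90), Ier5l (0.90), Pcsk6 (0.87), Hspb1 (0.84) and Igfbp2 (0.84). For Lef1 they were Slit2 (0.83), Mdk (0.83), Pipox (0.81), Cxcl11 (0.80) and Fscn1 (0.78). Within STAT5ca tumours, where Lef1 was near the added 7.9 throughout, the r of Mdk, Pipox and Cxcl11 with it was 0.28 to 0.34. For Ctnnb1 they were Nde1 (0.90), Ppp1r2 (0.88), Clasp2 (0.88), Zc3hc1 (0.87) and Pald1 (0.86). These are the top of many genes and describe these arrays.

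The rest of the pathway was read from a list by role, 1 probe set a gene. Of 22 ligands listed 7 could be tested. Wnt4, which acts in progesterone-driven duct branching, fell in both kinds of tumour, with changes of -1.66 ± 0.43 log2 units in STAT5ca (limma adjusted p 0.0123) and -1.47 ± 0.44 in STAT5Δ750 tumours (0.0283). Wnt4 was above 35.4 on 3 glands, 1 STAT5ca and 1 STAT5Δ750 tumour. It was thus tested through the glands, where it is high, and its fall is a description. Wnt11 fell in STAT5ca tumours (-1.13 ± 0.33, adjusted p 0.0226) and Wnt7b rose in STAT5Δ750 tumours (1.85 ± 0.61, 0.0437). Their values in the other kind of tumour, -0.86 and 0.55, did not pass. Wnt11 was above 35.4 on 3 glands, 0 STAT5ca and 1 STAT5Δ750 tumour. It too was tested through the glands, and its fall is a description only.

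Of 20 receptors listed 14 were tested. Fzd4 fell in both, with changes of -1.68 ± 0.37 (adjusted p 0.00451) and -1.98 ± 0.38 log2 units (0.00219). It passed in each of the 16 fits with 1 array left out. Fzd4 was above 35.4 on 3 glands, 1 STAT5ca and 0 STAT5Δ750 tumours, so it was tested through the glands, where it is high. Its fall is a description, and the 16 fits share that limit. Fzd2 rose in STAT5ca tumours (1.77 ± 0.53, adjusted p 0.0261) and was 1.54 ± 0.54 in STAT5Δ750 tumours (0.0588). It was above 35.4 on 0 glands, 7 STAT5ca and 6 STAT5Δ750 tumours, so it was tested through the tumours and its rise is a description. Of 12 further secreted antagonists listed 6 were tested. Frzb, a relative of Sfrp1, fell in both, with changes of -2.99 ± 0.49 (adjusted p 0.000646) and -2.74 ± 0.50 log2 units (0.00171). Frzb reached the signal of 35.4 on the 3 glands (106.1 to 157.1) and on 0 of the 13 tumours (0.6 to 32.7), so it was tested through the glands alone and had to differ. Its fall is a description only.

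Of 16 genes of the destruction complex and relay 14 were tested and 1 passed. Wls, which escorts Wnt out of the cell, rose in STAT5ca tumours (0.90 ± 0.29, adjusted p 0.0362). Of 14 nuclear factors 13 were tested. Cby1 and Ctnnbip1, which both bind beta-catenin and hold it from its partners, rose in STAT5ca tumours by 0.93 ± 0.24 (adjusted p 0.0114) and 1.07 ± 0.31 log2 units (0.0242). Cby1 also rose in STAT5Δ750 tumours (0.83 ± 0.24, 0.0264), where Tle4, a corepressor, fell (-1.04 ± 0.33, 0.0409).

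Of 20 targets 13 were tested. In all, 3 rose and 1 fell in STAT5ca tumours, 30.8% of those tested beside 20.8% of all probe sets. In STAT5Δ750 tumours 2 rose and 1 fell, 23.1% beside 18.3%. With 1 probe set per gene, as in the lists, the shares of all were 23.3% in STAT5ca and 19.7% in STAT5Δ750 tumours. The shares called in STAT5ca and STAT5Δ750 tumours were 28.6% and 28.6% for the ligands, 14.3% and 7.14% for the receptors, 16.7% and 16.7% for the secreted antagonists, 7.14% and 0% for the destruction complex and relay, and 23.1% and 15.4% for the nuclear factors. Ccnd1, the cyclin that starts the cell cycle and also a target of other signals, rose by 2.87 ± 0.65 (adjusted p 0.00578) and 2.33 ± 0.67 log2 units (0.0236). Myc rose in STAT5Δ750 tumours (1.29 ± 0.34, adjusted p 0.0152) and was 0.84 ± 0.33 in STAT5ca tumours (0.0816). Dact1, a Dishevelled-binding protein, fell in both, with changes of -1.17 ± 0.27 (0.00606) and -1.09 ± 0.27 log2 units (0.0123). Ephb3 (2.08 ± 0.62, 0.0258) and Id2 (1.196 ± 0.40, 0.0434) among the targets and the coactivator gene Bcl9l (0.73 ± 0.25, 0.0463) among the nuclear factors rose in STAT5ca tumours; these 3 are outside the rule for naming genes and were named after their values were seen. The median change of the 13 targets was 1.196 and 1.51, beside 0.28 and 0.17 for all probe sets and 0.25 and 0.08 with 1 probe set per gene. Adipocyte and endothelial genes fell on the same arrays as Fzd4, Frzb, Wnt4 and Dact1, and their part was not tested.

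Most of these pathway calls also changed with single glands. Fzd4 in both kinds of tumour, and Ccnd1 in STAT5ca tumours, passed with any 1 array left out. For Fzd4, which was tested through the glands, this adds no support. Without gland 1 the calls of Dact1 were lost in both (adjusted p 0.063 and 0.0982), and so was that of Cby1 in STAT5ca tumours (0.0786). Without gland 1 or gland 4 those of Wnt4 in both, of Wnt11 and of Ctnnbip1 were lost (0.0651 to 0.150). Without gland 4 or gland 6 that of Myc was lost (0.104 and 0.0632). Those of Fzd2, Wls, Wnt7b and Tle4, and of Ccnd1 and Cby1 in STAT5Δ750 tumours, were lost with each of the glands left out (0.0511 to 0.185).

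Some calls also changed with single tumours. Without STAT5Δ750_165 the STAT5Δ750 calls of Wnt4, Wnt7b, Tle4 and Cby1 were lost (adjusted p 0.0521 to 0.0844). Those of Wnt7b and Tle4 were lost without STAT5Δ750_160 (0.0623 and 0.0737), those of Wnt4 and Tle4 without STAT5Δ750_92 (0.0515 and 0.0566), those of Wnt4 and Wnt7b without STAT5Δ750_174 (0.051 and 0.0666), and that of Wnt7b without STAT5ca_213 (0.0534). The call of Wls was lost without STAT5ca_123, STAT5ca_213, STAT5ca_169 or STAT5ca_171 (0.0514 to 0.0578). At the deposited scaling the calls of Wls (0.182), Ctnnbip1 (0.0862), Fzd2 (0.06) and Wnt7b (0.0544) were lost. With the beta-actin ratio as a covariate, Wnt11 kept its call in STAT5ca tumours, which adds no support, since Wnt11 was tested through the glands. With that covariate Wnt4, Fzd4, Fzd2, Wls, Cby1, Ctnnbip1, Ccnd1 and Dact1 lost their STAT5ca calls (0.0833 to 0.419). Wnt4 was then at -1.67 log2 units, Fzd4 at -1.32, Fzd2 at 1.61, Wls at 1.06, Cby1 at 0.77, Ctnnbip1 at 0.51, Ccnd1 at 2.29 and Dact1 at -0.87. In STAT5Δ750 tumours the same covariate ended the calls of Wnt4 (-1.48, adjusted p 0.0546), Wnt7b (1.94, 0.0678), Cby1 (0.73, 0.071), Tle4 (-1.09, 0.0602) and Ccnd1 (1.99, 0.079). With the Gapdh ratio as a covariate the STAT5Δ750 calls of Wnt7b (1.89, limma adjusted p 0.0552) and Tle4 (-1.06, 0.0512) were lost, while Ctnnbip1 then passed (0.95, 0.0451). Ephb3, Id2 and Bcl9l were not run under the alternatives.

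**Figure D5:**
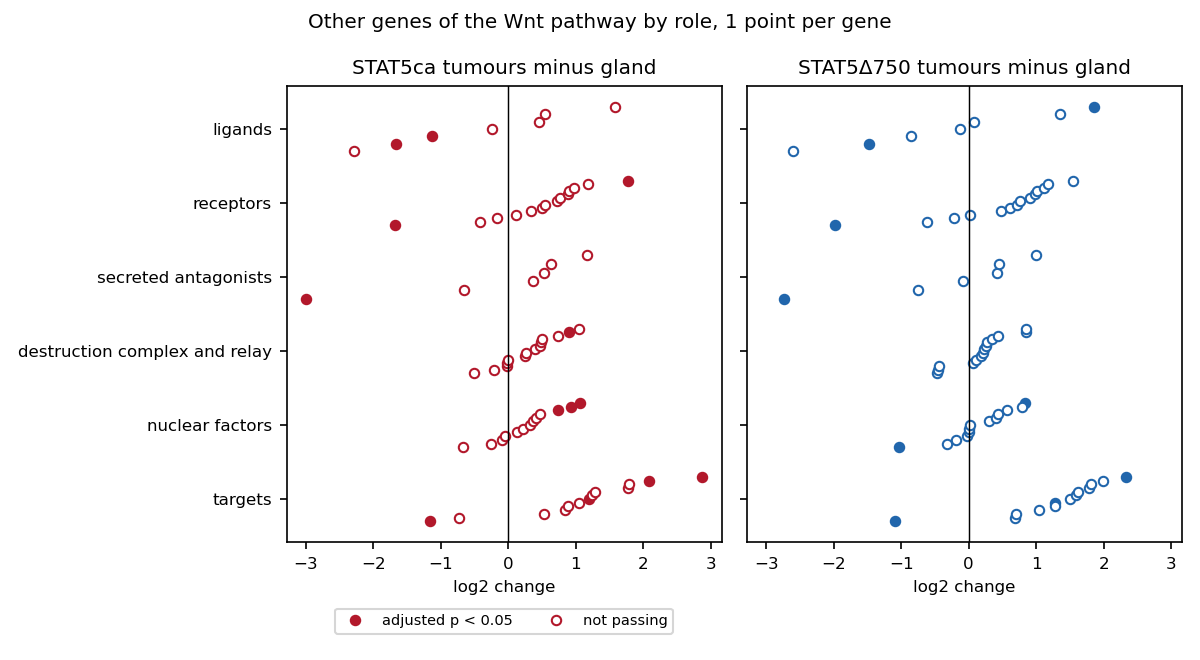
Log2 change against gland (x axis, log2 units) of the tested genes of the Wnt pathway by role, 1 point a gene, STAT5ca tumours on the left and STAT5Δ750 tumours on the right. Filled points passed at an adjusted p under 0.05. Most points of the targets lie to the right of 0, while the lowest point in both panels is the antagonist Frzb, at -2.99 and -2.74, which was bright enough to be tested in gland only.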

How the data were processed

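Each probe set of the Affymetrix Mouse Genome 430A 2.0 array had 1 deposited value per sample, a MAS5 signal made by the authors, which is a linear intensity. MAS5 is named without a version in the submitters' processing notes, and the genome build is not given in the sources used here. Per the labels' protocols, tumours were snap-frozen and total RNA was extracted with TRIZOL and labelled as biotin cRNA.

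Array medians differed 1.58-fold (57.3 to 90.7), so arrays were scaled to a common median of 74.0. The offset of 7.9 is the 20th percentile of the deposited values. Probe sets with a deposited signal above 35.4, the 40th percentile, on at least 3 arrays were tested. Groups were compared with limma 3.58.1 (R 4.3.3) in 1 model of 3 groups with 13 residual degrees of freedom, two-sided, with Benjamini-Hochberg adjustment over 15764 probe sets and a threshold of 0.05. Errors are standard errors of the model. Correlations used permutation tests with 100000 resamples over the tumours, and exact enumeration within a tumour group. With no probe set for Tcf7, 36 and 27 pairs were tested. The number of arrays limits the precision.

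All 20 probe sets matched by gene identifier to names of GRCm38.p6, and 0 symbols changed. A gene's main probe set has the highest mean log2 value. The genes and all lists were chosen with earlier results of these data known. Of the pathway list, up to 3 passing genes per role with the smallest adjusted p were named, and for each passing gene the 5 most correlated genes. The marker lists were T cell, B cell, basal, luminal, fibroblast, adipocyte, skeletal muscle and endothelium. The procedure was tested on simulated data. The alternatives covered scaling, offset, filter, probe set choice, spread, arrays in the fit, RNA quality and left-out arrays.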

Additional observations from a re-analysis of the deposited data

How the results depend on the processing

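No paired analysis was possible because the groups share no replicate numbers. The count of Wnt probe sets that passed, 3 of 18 in STAT5ca and 2 of 18 in STAT5Δ750 tumours against gland, moved with the setting and the cause was not tested. In STAT5ca tumours it was 1 at the deposited scaling, 5 with that scaling and without STAT5ca_177, 5 with an offset of 1, 5 with a floor at the 20th percentile, 14 with array quality weights and 0 with the beta-actin ratio as a covariate. In STAT5Δ750 tumours it was 0 at the deposited scaling, 1 with an offset at the 40th percentile, 1 without a filter, 1 of 8 with 1 probe set per gene, 11 with array quality weights, 8 with only the arrays of the 2 groups, 0 with the Gapdh ratio as a covariate, and 1 without STAT5ca_124 and STAT5Δ750_254, the tumours with high B cell genes. Leaving out 1 array gave 0 to 7 in STAT5ca and 0 to 4 in STAT5Δ750 tumours. The count was 4 in STAT5Δ750 tumours without STAT5ca_123, STAT5ca_177 or STAT5Δ750_178, and 1 without STAT5ca_124, STAT5ca_213, STAT5ca_159 or any 1 of STAT5Δ750_254, STAT5Δ750_165, STAT5Δ750_174 and STAT5Δ750_160. The array weights were computed gene by gene, because the default method did not converge, and gave gland 1 a weight of 8.61, so that 7594 and 7541 of all probe sets were then called. Between the kinds of tumour, 0 of the tested Wnt probe sets passed under every setting run, and 0 correlated pairs passed under Spearman's rho, quantile normalization, the deposited scaling or without STAT5ca_177. No called change turned its direction among the genes run under these settings; Ephb3, Id2 and Bcl9l were not run. The uncalled change of Wif1 in STAT5Δ750 tumours went to -0.01 without 1 tumour. Signals near 7.9, as those of Nkd2 in gland and Lef1 in tumours, limit how well the size of a change is known.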
